A study of Bos taurus with 12 samples.

Results

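The autosomal CpG sites with very high sequencing coverage are described here, in a comparison of skin fibroblasts taken from the same cattle at a young and at an older age. A site was included when the mean coverage over the 12 cultures, that is the number of reads behind its methylation ratio, was at least 100. This held for 34516 of the 816482 autosomal CpG sites (4.23%), out of 838705 sites tested in all, and each strand of a CpG counts as a site of its own. Reduced representation bisulfite sequencing (RRBS) had been performed on DNA of primary dermal fibroblasts from 6 Holstein heifers, each sampled at 5 months of age (cultures 1A to 6A, called young) and again at 16 months (cultures 1B to 6B, called old). All 12 cultures were at passage 6, were grown from frozen stocks thawed together and received no treatment. The heifers were a subset of a larger cohort of fibroblast donors, and each age of each heifer is represented by a single culture.

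RRBS cuts DNA with MspI, an enzyme that recognises CCGG, and in this study the enzyme TaqαI was used before it. The short fragments are sequenced after bisulfite treatment, which turns unmethylated cytosine into uracil and leaves methylated cytosine as it is. Fragments that occur in many copies in the genome can receive more reads than unique ones. In mammals CpGs in interspersed and satellite repeats are usually methylated, in contrast to those in CpG islands at promoters, which are usually not. Reads from copies that the assembly has collapsed into 1 place are counted at that place, so a ratio there is an average over copies.

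The whole table held between 19007741 and 31643295 read counts per culture, and no tested site had fewer than 5 reads in a culture. The high-coverage sites carried between 7754894 and 12762841 of these counts. Their mean coverage ran from 100 to 7782.25 reads with a median of 181, against a median of 13.7 at the other 781966 autosomal sites. The sites were chosen by this coverage in the same 12 libraries, so it is given as a description. In a single culture a high-coverage site could still be shallow. The lowest value was 5 reads, and 17761 of the sites (51.5%) reached 100 reads in each of the 12 cultures. At the upper end the values piled up just short of a ceiling: the highest was 8006 reads, 112 values lay at 7600 or above, and 22 lay from 6800 to below 7600. Whether a ceiling was set upstream is not given in the sources used here. Both strands were represented, with 17495 sites on the plus and 17021 on the minus strand. Read counts are not independent molecules, and a number of reads limits only the counting error of a ratio.

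The high-coverage sites also showed where the labelled pairs did not hold together. Coverage was taken per culture relative to its autosomal reads, on a log2 scale, and the deviation of each culture from the mean over all 12 was correlated across the high-coverage sites. Cultures 4A and 4B correlated with r = 0.840, 5A and 5B with 0.780, 1A and 1B with 0.641, and 3A and 3B with 0.598. The cultures labelled as animal 2 gave -0.0272 and those labelled as animal 6 gave -0.00786, where the median over cultures of different animals was -0.173. Culture 6B deviated together with both cultures of animal 3, with r = 0.789 to 3A and 0.660 to 3B. Between the labels 2 and 6, cultures 2A and 6B gave 0.0524, and 6A and 2B gave 0.143. The methylation ratios at the same sites correlated more weakly, with 0.420, -0.0662, 0.102, 0.172, 0.400 and -0.0632 for animals 1 to 6. In these ratios 6B correlated with 3A at 0.127 and with 3B at 0.137, both above the value of animal 3 itself. At the other autosomal sites the ratios of the 6 labelled pairs correlated between -0.126 and -0.0400, where the median over different animals was -0.0918. These correlations run across sites of the same libraries, and sites are not independent replicates. In what follows "the cultures labelled 2 and 6" are kept in the comparison as labelled. Values without these animals are given for the summary levels, the counts of calls, the called sites and the loci that differed between animals.

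The most visible property of the high-coverage sites was their methylation level. Their mean ratio over the 12 cultures was 65.0%, with a median of 69.7% and an SD over sites of 22.1 percentage points. The other autosomal sites had a mean of 21.7% and a median of 2.25%. Intermediate levels prevailed: 21814 of the high-coverage sites (63.2%) lay between 20% and 80%, 11074 (32.1%) lay above 80%, and 1628 (4.72%) lay below 20%. Among the other sites 19.4% were intermediate, 10.8% were above 80% and 69.8% were below 20%. A site with a ratio of 0 in every culture was rare, at 22 of the high-coverage sites (0.0637%) and 25.1% of the others. That share depends on depth, since a single methylated read counts for more at a shallow site and is met more often at a deep one. A mean ratio below 5% was found at 624 of the high-coverage sites (1.81%) and 60.1% of the others.

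**Figure D1:**
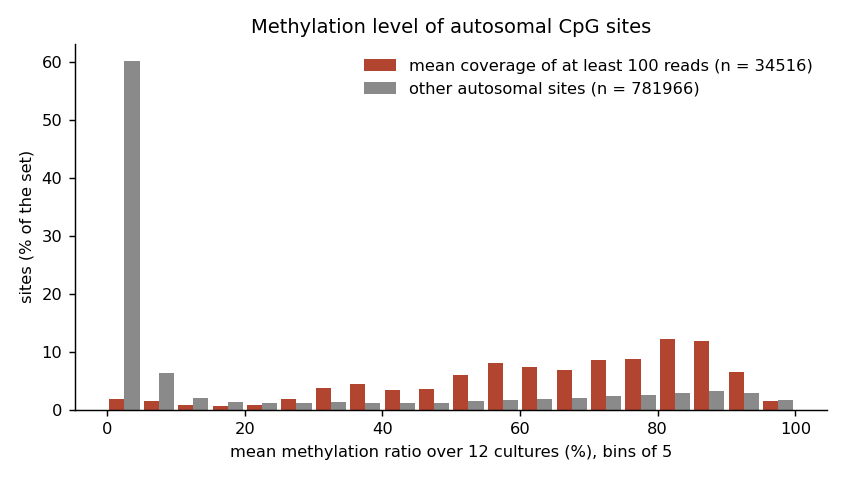
Share of sites (%) in bins of mean methylation ratio (%) for the 34516 autosomal CpG sites with a mean coverage of at least 100 reads and for the other 781966 autosomal sites. The high-coverage sites spread over the intermediate and high levels with a median of 69.7%, and the others crowd into the lowest bin with a median of 2.25%.

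The level did not start to rise at the limit of 100 reads. Mean methylation was 21.2% at sites with a mean coverage from 5 to below 10, 18% from 10 to below 20, and 23.9% from 20 to below 50. It was 66.0% from 50 to below 100, where 3.22% of 31749 sites were below 20%. From there it declined slowly, to 65.6% from 100 to below 200, 64.8% from 200 to below 500, 63.6% from 500 to below 1000, and 59.98% at the 1603 sites with 1000 reads or more. The step therefore lay between the bin ending at 50 reads and the next one. The sites nearest to the limit give the same picture. Of the 24 sites at a mean of 100 reads exactly, the one at chr1:57456905 (bosTau8) had a mean ratio of 74.3% when young and 72.5% when old. Others of these were chr3:8111833, with 2.17% and 3.17%, and chr3:13924979, with 59.3% and 61.0%. Just below, at 99.9 reads, chr1:57456900 had 84.8% and 85.8%, chr1:57456903 had 51.8% and 57.3%, and chr1:153214563 had 74.0% and 75.8%.

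The high-coverage sites were concentrated in few places. Sites on a chromosome at most 100 bp apart formed 5163 loci, of which 484 held a single site. A locus had a median of 5 sites and a median width of 66 bp, the largest held 115 sites, and the widest spanned 630 bp. Neighbouring high-coverage sites were a median of 11 bp apart. Within a locus the methylation level was not uniform: the highest and the lowest site of a locus differed by a median of 36.8 percentage points. Of the loci, 4354 had a mean level between 20% and 80%, 625 lay above 80%, and 184, with 1171 sites, lay below 20%.

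On a larger scale, high-coverage sites fell into 645 of the 16989 windows of 100 kb that held a tested autosomal site (3.80%). In 89 of these windows there were at least 100 of them, and these windows held 22438 (65.0%) of all high-coverage sites. Tested CpGs of any depth were dense in these windows, with a median of 948 tested sites against 17 over all windows. Part of this contrast follows from the choice, which required at least 100 tested sites. Of the 100705 tested sites in these windows, 22438 were the high-coverage sites themselves. The windows held 12.3% of all tested autosomal sites. The 78267 other sites in them had a mean methylation of 64.8% at a median coverage of 30 reads, close to the level of the high-coverage sites themselves. Outside these windows the 703699 other sites had a mean of 16.9% at a median coverage of 13.1. As a pooled mean, the level thus went with the block in which a site lay, also for sites well under the limit of 100 reads. The blocks were not alike: over the 89 windows the level ran from 10.3% to 81.1%, with a median of 66.7%.

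Every autosome carried high-coverage sites, in unequal shares. They made up 9.90% of the tested sites of chromosome 27, 9.17% of those of chromosome 8 and 8.78% of those of chromosome 4, and 1.15% of those of chromosome 18. Their mean methylation was lowest on chromosome 18, at 49.3%, and highest on chromosome 14, at 73.1%, and it was above that of the other sites on all 29 autosomes. Cattle autosomes carry the centromere at an end, so the position along the chromosome was also described, between the outermost tested sites. The first 10% held 13.2% of the high-coverage sites and 9.42% of the others, and the last 10% held 10.4% and 19.8%. These pooled shares were not shared by the chromosomes. The first 10% held from 0% of the high-coverage sites on chromosomes 12 and 23 to 81.5% on chromosome 14. The last 10% held from 0%, as on chromosome 12, to 40.6% on chromosome 17.

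The window with the most high-coverage sites was on chromosome 3, where chr3:82800014-82897281 held 797 of them among 3671 tested sites at a mean methylation of 66.5%. The neighbouring window, chr3:82707910-82799997, held a further 535. On chromosome 29, chr29:19400063-19449600 held 775 of 2469 tested sites at 54.5%. On chromosome 4, chr4:41465317-41497564 held 724 of 1640 tested sites at 55.2% and took 3.46% of all reads at high-coverage sites. Its mean young minus old difference was 0.857 percentage points, and 1 of its 724 sites was called different between the ages by the rule given below. What the annotation of bosTau8 places in these blocks was not analysed here.

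The spacing of the CpGs within the blocks was described next. After the strands of each CpG were merged, 28650 CpGs with high coverage were listed in order, and the distances between consecutive CpGs at most 100 bp apart were read as a pattern, in either direction. The most frequent pattern of 4 CpGs had gaps of 4, 7 and 17 bp and occurred in 486 of 14257 runs (3.41%) on 28 chromosomes. Among the 320956 runs formed by the remaining CpGs it occurred in 491 (0.153%). A pattern with gaps of 6, 17 and 12 bp occurred in 369 high-coverage runs on 29 chromosomes, and in 573 runs elsewhere (0.179%). Of the high-coverage CpGs 66.4% lay in a run of 4 whose pattern occurred at least 10 times in their own set, and so did 68.7% of the 574331 remaining CpGs. As the sets are of unequal size, these shares are not comparable as such. The patterns named here were picked for being frequent at high-coverage CpGs. The sequence between them was not read.

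Distances between copies of a pattern were measured. The most frequent pattern of 6 CpGs, with gaps of 11, 6, 20, 8 and 19 bp, occurred 1237 times among all tested autosomal CpGs. Of 980 neighbouring copies at most 20 kb apart, 773 (78.9%) pointed in the same direction, and the distance found most often among these was 1400 bp, 33 times. Between 1350 and 1450 bp there were 215 of the 773 distances (27.8%), against 23 in the 100 bp before and 27 in the 100 bp after. The second pattern, with gaps of 29, 17, 7, 4 and 30 bp, also had 1400 bp as its most frequent distance, and 70 of its 311 same-direction distances lay between 1350 and 1450 bp. For the third, with gaps of 4, 7, 17, 29 and 12 bp, the most frequent distance was 1399 bp, and 87 of 419 lay in that range. Read in the other direction, the second pattern shares the gaps of 4, 7, 17 and 29 bp with the third. Both can thus cover the same CpGs, and their distances are not separate observations.

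Each position in such a run had a methylation level of its own, as the most frequent patterns of 6 CpGs show. In the 267 high-coverage runs of the 11, 6, 20, 8 and 19 bp pattern, which lay on 29 chromosomes, the levels of the 6 CpGs were 31.7%, 73.9%, 63.2%, 37.2%, 42.3% and 27.3%. Their SD over runs was between 2.61 and 4.45 percentage points. CpGs 11 bp apart in the same short run thus differed by more than the SD of a single position over runs. The 924 runs of the same spacing among CpGs of lower coverage had 31.7%, 74.5%, 64.3%, 37.4%, 42.3% and 27.6%. In the 243 runs with gaps of 29, 17, 7, 4 and 30 bp, on 25 chromosomes, the levels were 83.7%, 57.4%, 81.4%, 84.0%, 87.6% and 69.7%. The 236 runs of lower coverage had 83.3%, 58.6%, 80.9%, 83.9%, 86.9% and 68.7%. Over all positions of the 3 most frequent patterns of 6 CpGs, the runs on either side of the coverage limit differed by a median of 0.360 and at most 1.23 percentage points, and both come from the same 12 libraries. Not every pattern was as even. For the first CpG of the 4, 7 and 17 bp pattern the level was 87.3% with an SD over runs of 5.01 at high coverage, and 81.5% with an SD of 21.3 elsewhere.

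The ages differed little at these positions. In young cultures the 6 CpGs of the first pattern had 31.7%, 74.0%, 63.3%, 37.8%, 42.1% and 27.5%, and in old cultures 31.7%, 73.7%, 63.2%, 36.6%, 42.5% and 27.1%. Several of the 9 patterns examined share gaps, so their positions are not all separate observations. Over all positions of these patterns, the mean young minus old difference lay between -1.08 and 1.28 percentage points. The SD over the 6 animals lay between 0.988 and 2.93. The lowest and the highest of these differences came from short patterns. The fourth CpG of the 6, 17 and 12 bp pattern had 35.7% in young and 36.8% in old cultures, a difference of -1.08 ± 1.34 percentage points (SD, n = 6). The fourth CpG of the 11, 6 and 20 bp pattern had 39.95% and 38.7%, a difference of 1.28 ± 2.27 (SD, n = 6).

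**Figure D2:**
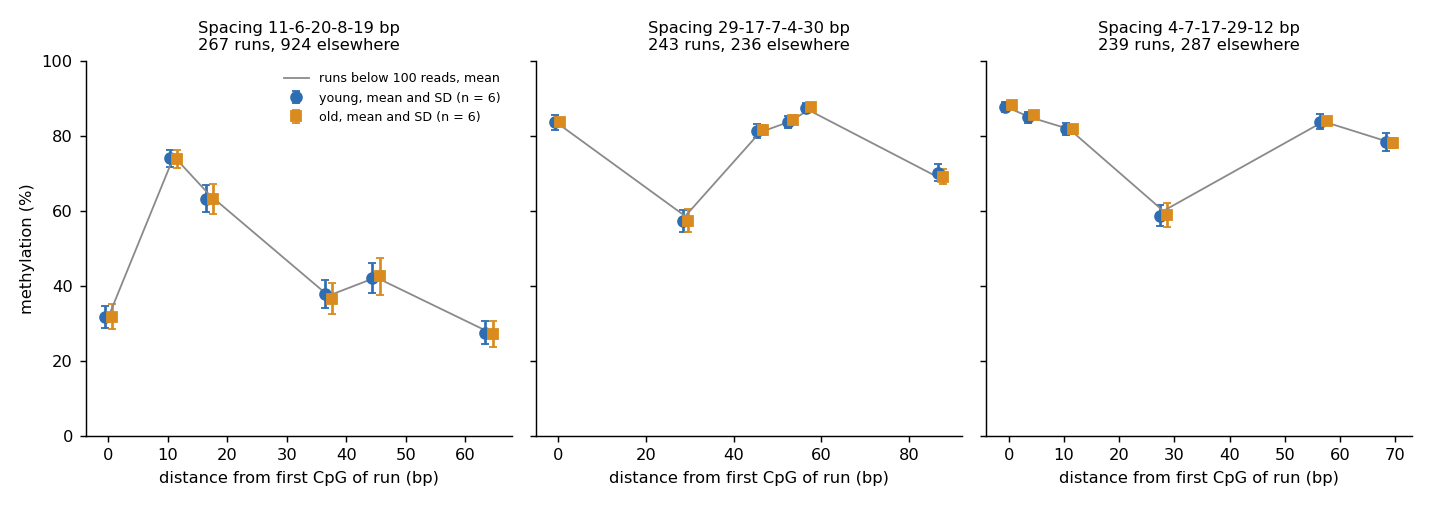
Methylation (%) of the CpGs in the 3 most frequent spacing patterns of 6 high-coverage CpGs, by distance from the first CpG (bp). Circles and squares are the means of the 6 young and the 6 old cultures with their SD, and the grey line is the mean of runs of the same spacing below 100 reads. Young, old and lower-coverage values lie on top of each other, while neighbouring CpGs differ, as from 31.7% to 73.9% over 11 bp.

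The comparison of the ages asked whether methylation at these sites differed between cells taken from the same heifer at 5 and at 16 months. Weighted by reads, the young cultures 1A to 6A had 64.3%, 64.6%, 62.6%, 62.9%, 62.3% and 64.1% methylation over all high-coverage sites. The old cultures 1B to 6B had 65.7%, 62.8%, 61.7%, 62.3%, 63.3% and 62.8%. The ranges overlapped almost fully. The young mean was 63.5% ± 0.976 and the old mean 63.1% ± 1.38 (SD, n = 6), and the difference was 0.363 ± 1.29 percentage points, higher in young in 4 of 6 animals. Animals 1 and 5 went the other way, by -1.38 and -1.052. Without animals 2 and 6 the difference was -0.214 ± 1.17 percentage points (SD, n = 4), so its sign turned with the choice of animals. No test was made of this score, because the sites were chosen with results of the data known.

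Counting every site equally gave 65.0% ± 1.28 for young and 64.9% ± 1.53 for old cultures (SD, n = 6). The difference was 0.190 ± 1.35 percentage points, again higher in young in 4 of 6 animals, and without animals 2 and 6 it was -0.470 ± 1.03 (SD, n = 4). At the other autosomal sites the read-weighted levels were 29.8% ± 1.25 and 28.5% ± 1.34, with a difference of 1.26 ± 1.54 percentage points and 5 of 6 animals higher in young, and without animals 2 and 6 it was 1.06 ± 1.45 (SD, n = 4). Over all 6 animals the SD exceeded the mean difference in each of these measures. The share of autosomal reads at high-coverage sites was 43.9% ± 1.01 for young and 42.7% ± 0.849 for old cultures (SD, n = 6). It was higher in young in 5 of 6 animals, by 1.18 ± 1.24 percentage points. Without animals 2 and 6 the difference was 1.67 ± 0.727 (SD, n = 4), higher in young in all 4, and this share rests on the coverage that chose the sites.

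**Figure D3:**
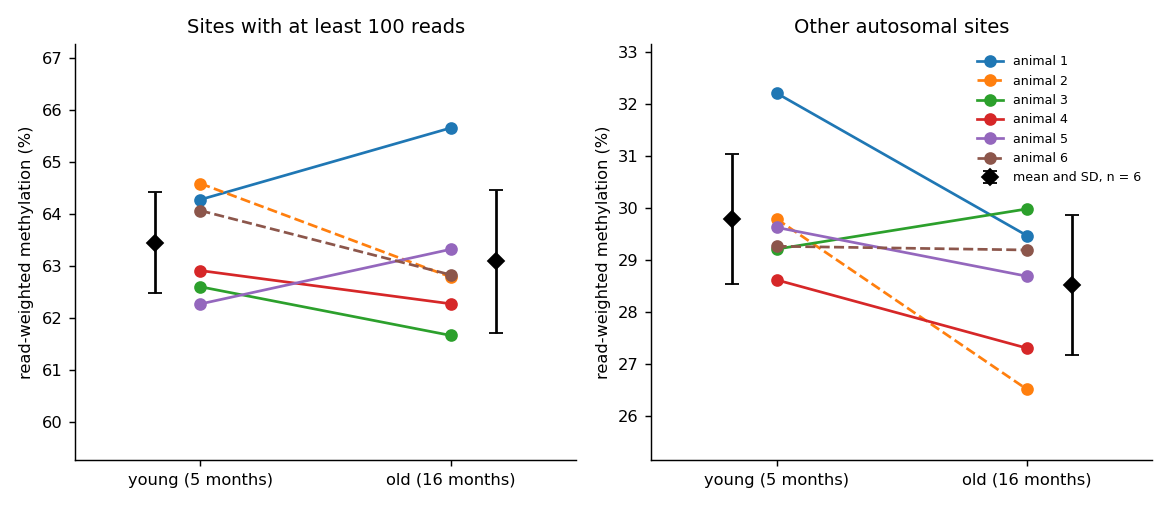
Read-weighted methylation (%) of each culture at high-coverage sites and at the other autosomal sites, with a line for each of the 6 animals from young to old and diamonds for the mean and SD of each age. Dashed lines are animals 2 and 6, and both panels span 8 percentage points. At high-coverage sites 4 animals were higher when young and 2 when old.

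Site by site, the paired test of the methods was run on the ratios of all 838705 tested sites. A site was called when its unadjusted P was below 0.05 and its mean difference was at least 10 percentage points. Over all tested sites this called 1.68% of them, 1.12% as higher in young and 0.567% as higher in old. Of the 34516 high-coverage sites it called 10 (0.0290%), 8 of them higher in young and 2 higher in old. Among the other autosomal sites 1.73% were called. The called sites carried 0.0114% of the reads at high-coverage sites, and 1.44% of the reads at the other sites. Without animals 2 and 6, with 4 pairs, the test called 26 high-coverage sites (0.0753%) and 1.48% of all sites. Leaving out any 1 of the 6 animals gave between 16 and 26 high-coverage sites (0.0464% to 0.0753%), where it gave 1.53% to 1.73% of all sites.

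Large differences were rarer at the high-coverage sites. Only 25 high-coverage sites (0.0724%) had a mean difference of 10 percentage points or more, against 7.05% of the others. The largest mean difference at a high-coverage site was 13 percentage points, and 68.8 at another site. The median size of the difference was 1.33 percentage points at high-coverage sites and 1.5 at the others, of which 25.1% had no methylation at all, and the 90th percentiles were 3.67 and 8. Among sites of intermediate methylation the median size was 8.17, 7.17, 3.83 and 2.5 percentage points in the bins of coverage below 100 reads, and 1.83, 1.33, 1.17 and 1.17 in those above. With no minimum difference, P was below 0.05 at 2.87% of all tested sites and at 1672 high-coverage sites (4.84%), against 2.74% of the other autosomal sites. Of the 1672, 845 were higher in young (2.45% of the high-coverage sites), against 1.75% of all sites. The other 827 were higher in old (2.40%), against 1.12% of all sites. That background includes sites with no methylation in any culture, which cannot pass the test. Among sites of intermediate methylation it was 4.76% of the high-coverage sites and 7.19% of the others.

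The share called fell steadily with depth. It was 2.60% at sites with a mean coverage from 5 to below 10, 1.78% from 10 to below 20, 1.16% from 20 to below 50, and 0.450% from 50 to below 100. All 10 called high-coverage sites had between 100 and 200 reads, which is 0.0512% of the 19517 sites there, and 0 of 14999 sites with 200 reads or more were called. With no minimum difference, and among sites of 20% to 80% methylation only, P was below 0.05 at 8.80%, 8.10%, 5.90% and 5.00% in the bins below 100 reads, and at 5.10%, 4.60%, 3.62% and 3.22% in those above.

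The spread of the 6 differences narrowed over the same bins. The median SD of intermediate sites was 23.3 percentage points from 5 to below 10 reads and 8.26 from 50 to below 100. In the bins above the limit it was 6.05, 4.62, 3.72 and 3.31. The SD that counting of reads alone would give was 23.6 in the lowest bin, 8.39 from 50 to below 100, and then 5.93, 4.15, 2.67 and 1.78. Observed and counting spread were thus close up to 200 reads, except from 10 to below 20 reads (21.4 against 18.7), and parted above. At 1000 reads or more the observed variance was a median of 3.57 times that of counting. The counting SD takes reads as independent, although overlapping mates were counted separately, so this ratio is a description.

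**Figure D4:**
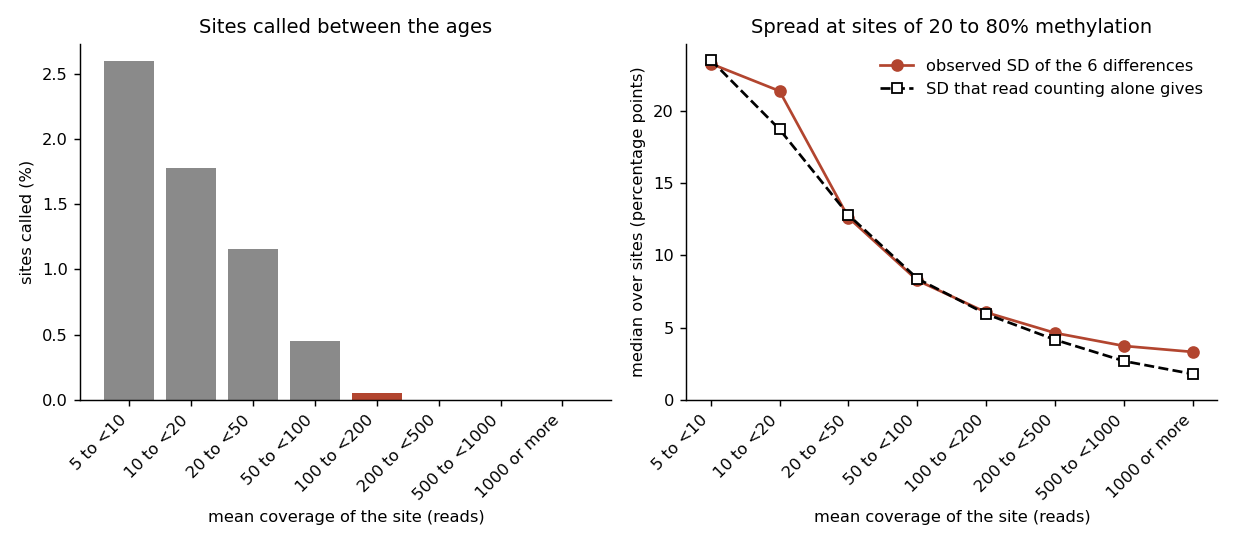
Left, share of autosomal sites called between the ages (%) by mean coverage in reads, with the high-coverage bins in red. Right, for sites of 20 to 80% methylation, the median SD of the 6 young minus old differences (circles) and the SD from read counting alone (squares), both in percentage points. The share called falls from 2.60% to 0, and the observed spread stays above the counting spread from 200 reads upwards, at 3.31 against 1.78 in the last bin.

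With P adjusted by Benjamini-Hochberg over the whole table, 0 high-coverage sites had an adjusted P below 0.05 by the methods' paired test, where 1672 had an unadjusted one. By the same test 0 of all tested sites passed, and the smallest adjusted P of any site was 0.470. The smallest adjusted P of a high-coverage site was 0.889. With limma and the animal as a block it was 0.582, and 12 sites passed the unadjusted rule with its minimum difference, where limma called 1.95% of all sites. A quasi-binomial logistic model on reads, with the animal as a block, called 12 high-coverage sites (0.0348%), against 1.24% of all sites. Its smallest adjusted P at a high-coverage site was 1. Leaving out the pairing, 13 high-coverage sites were called (0.0377%), against 1.91% of all sites. The smallest adjusted P of a high-coverage site was then 0.306, while 1 site of the whole table passed after adjustment (0.000119%). The exact permutation test with the same minimum difference called 8 high-coverage sites (0.0232%), against 0.776% of all sites. All 6 young cultures lay above all 6 old ones at 11 high-coverage sites (0.0319%), against 0.0936% of all sites. The reverse held at 8 high-coverage sites (0.0232%), against 0.0295% of all sites.

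The 5 called sites with the largest differences towards young cultures are given singly. They were picked for their difference in the same 6 pairs, so the P values are a description and no further support. They come from an exact permutation test that flips the sign of each animal's difference (two-sided) and cannot go below 0.0313. The largest difference was on the plus strand at chr3:1038516, where the young cultures 1A to 6A had 30%, 36%, 31%, 39%, 49% and 37% and the old cultures 1B to 6B had 25%, 20%, 18%, 30%, 30% and 29%. The groups met at 30% and every animal was higher when young. The means were 37.0% ± 6.84 and 25.3% ± 5.28 (SD, n = 6), a difference of 11.7 percentage points (exact P = 0.0313). This site had a mean coverage of 104 reads. The other strand of the same CpG, with 25.3 reads, had 4.67% methylation and differed by -2.33 percentage points.

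At chr5:97131806, on the plus strand, the young cultures had 78%, 83%, 82%, 78%, 71% and 79% and the old cultures 69%, 69%, 69%, 70%, 66% and 65%. The lowest young value lay just above the highest old one, so the groups did not overlap. The difference was 10.5 percentage points (exact P = 0.0313), and the other strand differed by 4.67 at 19.0 reads. On the minus strand at chr1:11274371 the young cultures had 44%, 49%, 50%, 51%, 50% and 46%, and the old cultures 39%, 38%, 34%, 33%, 44% and 40%. The groups met at 44%. The difference was 10.3 percentage points (exact P = 0.0313), where the other strand, at 357 reads, differed by 0.167.

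The remaining 2 sites in this direction overlapped between the ages. At chr1:5261752, on the minus strand, young cultures lay between 54% and 69% and old cultures between 45% and 59%, with a difference of 10.3 percentage points (exact P = 0.0313, 6 of 6 animals). Its other strand, with 420 reads, differed by -2.5. At chr16:63165450, on the minus strand, young cultures lay between 52% and 68% and old cultures between 43% and 59%, and animal 5 was higher when old (difference 10.3 percentage points, exact P = 0.0625). The remaining sites called as higher in young were chr4:41474820, chr9:65971147 and chr29:19573310, with differences from 10 to 10.2 percentage points. At the last of these animals 1 and 2 were higher when old (exact P = 0.125).

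Without animals 2 and 6 the differences of the 8 sites called as higher in young were between 7.25 and 12 percentage points. Only 2 high-coverage sites were called as higher in old cultures, with differences of -12.25 and -8.5 without these animals. On the plus strand at chr3:85605075 the young cultures had 37%, 31%, 28%, 28%, 30% and 28% and the old cultures 43%, 42%, 37%, 51%, 41% and 37%. All 6 animals were higher when old, and the groups met at 37%. The means were 30.3% ± 3.50 and 41.8% ± 5.15 (SD, n = 6), a difference of -11.5 percentage points (exact P = 0.0313). The other strand, at 22.6 reads, differed by 0.333. The second site, chr4:98763764 on the plus strand, lies in an intron of LRGUK, a gene with leucine-rich repeats and a guanylate kinase domain, according to the annotation in the authors' list of sites. Young cultures had 47%, 47%, 58%, 55%, 49% and 50% and old cultures 58%, 59%, 75%, 55%, 55% and 68%. Animal 4 was the same at both ages and the other 5 were higher when old, with a difference of -10.7 percentage points (exact P = 0.0625), and the other strand also differed by -6 at 56.6 reads.

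Among the 5866 CpGs with high coverage on both strands, the strands differed in level by a median of 2.00 percentage points. The direction of the age difference was the same on both strands at 54.0% of them. At 19 of these CpGs (0.324%) both strands had an unadjusted P below 0.05, against 0.262% of the 207635 other autosomal CpGs tested on both strands. Among CpGs of intermediate methylation the shares were 0.283% of 3533 high-coverage CpGs and 1.07% of 36686 others. As a description, the levels of the strands correlated across CpGs with r = 0.861, and strands of 1 CpG share the library and, in part, the fragments.

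The 10 loci with the most reads took 5.07% of the reads at high-coverage sites. The locus with the most reads, chr28:1894661-1894899, had 44 sites, and the adjacent one, chr28:1893821-1894450, had 54. At the first, methylation weighted by reads was 50.3%, 49.4%, 74.8%, 70.6%, 71.7% and 65.1% in cultures 1A to 6A and 51.7%, 61.6%, 73.4%, 68.8%, 70.7% and 73.7% in 1B to 6B. Animal 1 was low at both ages, and animals 3, 4 and 5 were high at both. The labelled animals 2 and 6 changed, by -12.2 and -8.58 percentage points. The age difference over all 6 was -2.98 ± 5.96 percentage points (SD, n = 6). At the most covered site of this locus, chr28:1894807 with 3767 reads on average, the difference was -2.83 (exact P = 0.406), and without animals 2 and 6 it was 0.750.

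Other loci with many reads were steadier between animals. At chr9:65872653-65872941 the levels were 83.3% ± 1.83 in young and 83.1% ± 1.32 in old cultures. At chr4:41490353-41490786 they were 53.3% ± 2.82 and 53.4% ± 2.32, with a difference of -0.0709 ± 0.742 percentage points (SD, n = 6). At chr23:19994082-19994432 they were 49.8% ± 2.40 and 49.5% ± 2.07. The most covered site of the latter, chr23:19994128, had 6784 reads on average and differed by 1.00 (exact P = 0.375).

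Cultures of the same animal and of different animals were compared across the ages, as a description. Among the 2945 loci with at least 5 high-coverage sites, the young and the old culture of the same animal differed by a median of 2.03 percentage points in size, and a young and an old culture of different animals by 2.81. The former was the smaller at 82.3% of the loci. Without animals 2 and 6 the values were 1.80 and 3.07 percentage points, but the remaining animals were kept because the coverage of their cultures paired at these sites. The mean young minus old difference of a locus was at most 5.75 percentage points. The means of animals 1, 3, 4 and 5 spanned more than 20 percentage points at 26 loci with 406 sites on 7 chromosomes. The 26 loci were picked for this span, so their values are a description.

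Of these, 22 loci with 331 sites shared a profile over the 12 cultures, with a correlation above 0.9 to the locus of the widest span. There were 11 on chromosome 25, 5 on chromosome 18, 4 on chromosome 7 and 2 on chromosome 2. They were low in methylation for high-coverage loci, with a median of 15.1%. Animal 5 stood above the others, with a median over the 22 loci of 34.7% when young and 34.6% when old. Animal 4 came next, with 18.8% and 17.5%. Animals 1 and 3 were lower, with 10.2% and 10.9%, and with 7.80% and 7.69%. The cultures labelled 2 had 16.9% when young and 7.19% when old, and those labelled 6 had 6.85% and 7.94%. The median age difference over the 22 loci was 0.758 percentage points with all 6 animals and -0.414 without animals 2 and 6, and the cultures labelled 2 alone differed by a median of 7.41.

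An example on chromosome 25 is chr25:32362798-32362883, with 20 sites. The young cultures 1A to 6A had 8.23%, 14.2%, 6.70%, 17.3%, 35.0% and 6.999%, and the old cultures 1B to 6B had 9.03%, 8.10%, 7.49%, 17.4%, 33.5% and 8.05%. Animals 5, 4 and 3 came in the same order at chr18:58239528-58239647, with 36 sites, where they had 32.9% and 34.2%, then 18.4% and 18.8%, and 11% and 11.8%. At chr7:89223691-89223742, with 6 sites, the same animals had 37.7% and 37.2%, then 19.1% and 15.9%, and 8.89% and 8.81%. A spacing pattern of 4 CpGs could be read at 20 of the 22 loci, and 0 of them shared one with a locus of the group on another chromosome. The second most read locus, chr25:32472650-32472706, belongs to the group, with 25.7% and 27.0% in animal 5 and between 4.65% and 13.6% in the other cultures.

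**Figure D5:**
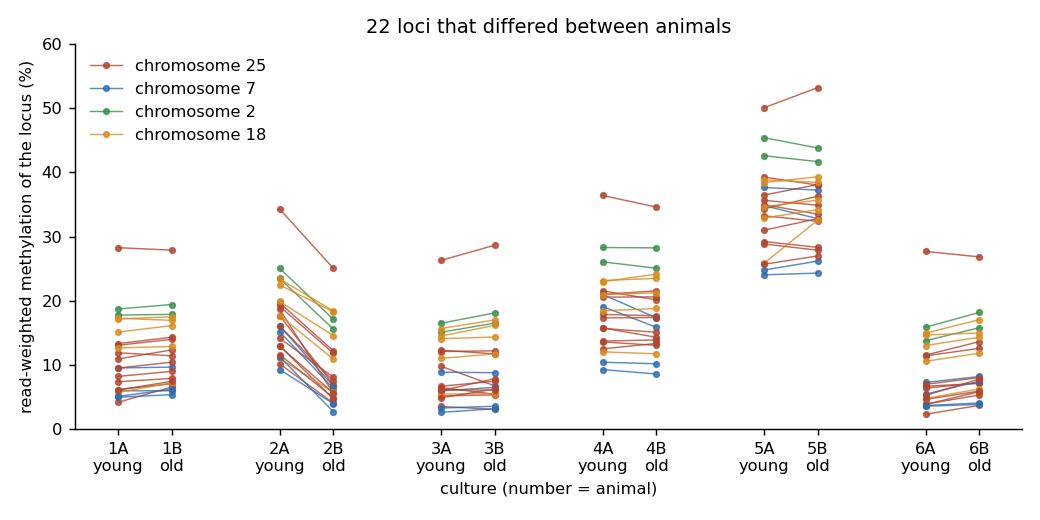
Read-weighted methylation (%) at 22 loci of high-coverage sites on 4 chromosomes, picked for a wide span between animals, with a line from the young (A) to the old (B) culture of each animal at each locus. Animal 5 stands at a median of 34.7% and 34.6%, and the cultures labelled 2 fall from 16.9% to 7.19%.

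The depth of some blocks also differed between animals. Among the 289 windows of 100 kb with at least 20 high-coverage sites, the highest culture had a median of 1.47 times the reads of the lowest, relative to autosomal reads. The ratio was above 2 in 41 windows. In the window at chr28:11350229-11363523, with 30 sites, young cultures 1A to 6A had 940, 134, 94.4, 993, 735 and 430 reads per 1000000 autosomal reads, and old cultures 1B to 6B had 984, 539, 114, 906, 688 and 106. Animals 1, 4 and 5 were high and animal 3 low at both ages. Of the cultures labelled 2 the old one was higher, and of those labelled 6 the young one. At chr20:72029590-72037499, with 20 sites, the highest culture, 4B with 1143 such reads, had 54.4 times the reads of the lowest, 5B with 21. The corresponding young cultures had 999 and 40.8. These windows were chosen after their values were seen.

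Few high-coverage sites could be placed in genes. The authors' list of sites gives gene and CpG island annotation for its own members only, and it held 12 of the high-coverage sites, of which 1 was annotated to a gene (LRGUK) and 0 to a CpG island. As a rough guide, chosen after the data were seen, 2168 high-coverage sites (6.28%) lay between listed sites of 1 gene at most 100 kb apart, for 35 genes, and 3.17% of the other autosomal sites did. The gene with the most was ADAMTS3, which encodes a protease that trims procollagen, with 326 sites and levels of 73.1% ± 1.72 for young and 72.6% ± 1.26 for old cultures (SD, n = 6). PDE5A, a phosphodiesterase that degrades cyclic GMP, had 244 sites at 68.1% ± 1.58 and 68.0% ± 1.81. RNF122 had 222 sites at 76.1% ± 0.827 and 76.1% ± 1.66, and FRMD5 had 185 sites at 65.9% ± 2.10 and 65.7% ± 2.60. LRGUK had 166 sites at 66.8% ± 1.89 and 66.8% ± 2.66.

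Other genes had fewer such sites. MET, the receptor of hepatocyte growth factor, had 49 sites at 71.5% ± 1.64 and 71.2% ± 1.46, and CTNNA1, the alpha-catenin of adherens junctions, had 46 sites at 70.5% ± 2.06 and 70.0% ± 1.63 (SD, n = 6). The differences were 0.350 and 0.424 percentage points. MRPS11, a protein of the mitochondrial ribosome, had 123 sites with a difference of -0.00453. ASB4, an adaptor of a ubiquitin ligase, had 46 sites and differed by 2.05 ± 2.76 percentage points (SD, n = 6), with 4 of 6 animals higher in young. The largest difference of the 35 genes was that of KCTD1, which rests on a single site and was -5.40 ± 5.04 percentage points, and 1 of 6 animals was higher in young. In the other 34 genes the mean difference was smaller than the SD over animals.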

How the data were processed

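RRBS had been performed on 12 unstimulated fibroblast cultures of 6 heifers. At Zymo Research the reads were trimmed with Trim Galore 0.3.7, checked with FastQC 0.11.1 and aligned with Bismark 0.13.1 to bosTau8, and uniquely mapped reads were kept. Tools and build are those of the submitters' processing notes. Overlapping mates were counted separately. The authors deposited 2 values of each culture for every site: a methylation ratio, which is a fraction with 2 decimals, and the coverage, which is a raw count of reads. Their table also holds a mean difference and a p-value of their own comparison, which were not used. A second table of the authors lists sites selected by that p-value. It was read for gene and CpG island annotation only. Positions are counted from 1 on bosTau8. No genome or annotation of this build was used here, so no sequence was read.

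Methylated reads were the product of ratio and coverage, rounded to whole numbers. The paired Student test stated in the methods was run on the ratios of all 838705 sites, with P set to 1 where the 6 differences had no spread. The minimum mean difference of 0.10 follows the deposited values. Single sites were tested with a two-sided exact permutation test that used all 64 patterns of signs. The pairs are the cultures with the same number, which come from 1 heifer by the labels. Over the high-coverage sites, the coverage deviations correlated between the cultures of animals 1, 3, 4 and 5 (0.598 to 0.840) and not between those labelled 2 and 6, so the main values are also given without these animals.

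The alternatives were no pairing, limma 3.58.1 and a quasi-binomial logistic model with the animal as a block and a dispersion not below 1, the sign-flip test, an arcsine square root scale, ratios from whole reads, merged strands, other coverage and distance limits, the X chromosome included, halved coverage at sites even in all cultures, and each animal left out in turn. The paired, unpaired, limma, quasi-binomial and sign-flip tests were first run on simulated data, and the other alternatives were not. Named loci were the 10 with the most reads, and named sites were the most covered site of each and up to 5 called sites per direction. The sites, lists and rules were chosen with earlier results of these data known. The pairs of animals, the gene intervals, the spacing patterns and the loci that differ between animals were chosen after the data were seen. Replicates are 1 culture per animal and age. Software was R 4.3.3 and Python 3.11.15 (scipy 1.17.1, numpy 2.4.6, matplotlib 3.10.9, pandas 2.3.3).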

Additional observations from a re-analysis of the deposited data

Results flagged for a closer look

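In 40 groups of 6 cultures, the highest or lowest value was compared with its neighbour, a comparison that chance flags in about 1 in 20 groups. A single culture stood apart in 2 of them. At chr3:85605075, one of the sites called as higher in old cultures, young culture 1A had 37%, above the 28% to 31% of the other young cultures. At chr11:107285002, the most covered site of a locus with many reads, old culture 2B had 71%, below the 80% to 84% of the other old cultures. Culture 2B belongs to an animal whose cultures did not pair in coverage.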

How the results depend on the processing

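The 10 called high-coverage sites depended on the rule. There were 1672 with no minimum difference and 0 with a minimum of 0.25. With merged strands, over 28650 CpGs, there were 5, and 5 relative to the other autosomal sites of the animal. With each animal left out in turn 16 to 26 were called, and without animals 2 and 6 there were 26. Without the windows of 100 or more such sites, which held 65.0% of them, there were 4. Other coverage limits also changed the number of sites. A limit of 50 gave 153 of 66265 sites (0.231%), and 100 reads in every culture gave 1 of 17761 (0.00563%). Limits of 200 and 500 gave 0 of 14999 and 0 of 4334. Without the replicate block there were 13, and with it 12 by limma and 12 by the quasi-binomial model, so the pairing moved the count by less than 1.5 times. After adjustment 0 remained by every test and with each animal left out. The mean level moved from 65.0% to 62.3% at a limit of 500 and to 63.5% with 100 reads in every culture. The share of reads was 43.3%, and 52.3%, 32.4% and 19.5% at limits of 50, 200 and 500, 33.8% with 100 reads in every culture and 45.3% with halved coverage. The 5163 loci became 7899, 2867, 999 and 3252 under the same 4 limits, and 3127 and 1995 with distances of 500 and 1000 bp. The read-weighted difference ranged from 0.0761 to 0.712 with each animal left out and the unweighted one from -0.191 to 0.533. Of the named sites, 5 passed the exact sign-flip test, all of them named because they had been called on the same differences. This fell to 0 without any animal and without animals 2 and 6, where the exact test cannot go below P = 0.0625 and 0.125. Directions turned at chr28:1894807 (0.750) and chr28:1894429 (0.500) without animals 2 and 6, and at chr11:107285002 without animals 2 and 6 (-1) and within the range with each animal left out (-0.6 to 2.8). The cause was not tested.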

Other observations

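On the X chromosome, which the coverage rule left out, 1504 further sites had a mean coverage of at least 100 reads. The coverage value of a site in a culture was an even number in 50.1% of values at high-coverage sites and in 64.7% at the other autosomal sites.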
